A study of Mus musculus with 6 samples.

Results

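Transcripts of 9 enzymes that make serine and pass its single-carbon units to folate were followed through erythroid differentiation in MEL cells, a mouse erythroleukemia cell line whose cells can be driven towards hemoglobin synthesis by DMSO. The 9 genes were chosen by name as Phgdh, Psat1, Psph, Shmt1, Shmt2, Mthfd1, Mthfd2, Mthfd1l and Aldh1l2, and each was represented by its transcript with the highest mean count. All 9 passed the filter on low counts and were among the 12381 genes that could be tested, out of 23896 genes with a symbol. Stranded mRNA libraries were made from 2 replicate cultures collected on each of days 0, 2 and 4 of treatment with 2% DMSO, which gave 6 libraries. All cultures came from the same line and were grown alike, and since the series analysed here holds no untreated culture at the later days, DMSO and time in culture cannot be told apart.

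Serine is built from a glycolytic intermediate by PHGDH, PSAT1 and PSPH in turn. The serine hydroxymethyltransferases, SHMT1 in the cytosol and SHMT2 in mitochondria, then split it into glycine and a carbon unit carried on tetrahydrofolate, and the MTHFD enzymes convert these carbon units among the forms that purine, thymidylate and methionine synthesis use. Glycine is also a substrate of heme synthesis, because ALAS2, the erythroid enzyme at its first step, joins glycine to succinyl-CoA. Proliferating cells are known for their high demand on this pathway, and ATF4, a transcription factor of the amino acid stress response, is known from other cells to raise several of its genes.

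The libraries held between 35294930 and 53899476 counts on transcripts, where transcripts of a gene can count the same reads. Reads on no feature made up between 50.5% and 58.4% of their sum with these counts. Levels below are library-scaled counts, written CPM, after scaling each library by its TMM factor. The identity of the cells was checked with 10 erythroid markers, whose summed level lay between 1170 and 1218 CPM on day 0, between 4451 and 5277 CPM on day 2 and between 17893 and 20083 CPM on day 4. Within these, the alpha globin transcript Hba-a1 averaged 125 CPM on day 0 and 10628 CPM on day 4. The beta globin transcript Hbb-bs averaged 41.8 CPM and 5036 CPM, so that globins made up most of the day 4 sum. Klf1 was called lower on day 4 than on day 0 (log2 fold change -0.54), whereas the other erythroid markers were called higher. Markers of neutrophils and monocytes summed to between 10.5 and 16.2 CPM (Elane, Ctsg and Ly6c2 at no more than 3 counts in any library), those of mast cells and basophils to at most 3.81 CPM (Mcpt8 and Tpsb2 at that floor in every library) and those of fibroblasts to at most 2.82 CPM (Col1a2 and Col3a1 at the floor). Most of the neutrophil and monocyte sum was Prtn3, at between 8.84 and 14.2 CPM. Between days 0 and 2, Lyz2 of that list was called higher (log2 fold change 2.08) and Csf1r lower (-1.66). No tested marker of that list was called on day 4 against day 0. The mast cell and basophil sum fell with the enzymes and lay between 3.63 and 3.81 CPM on day 0. It lay between 0.431 and 0.570 CPM on day 2 and between 0.221 and 0.416 CPM on day 4. Cpa3 went from 77 and 114 counts on day 0 to at most 1 and Fcer1a from 60 and 72 counts to at most 3. Cma1 was not called, at 11 and 1 counts on day 0, 14 and 24 on day 2 and 14 and 9 on day 4. The 4 megakaryocyte markers, none at the floor in every library, summed to between 211 and 271 CPM on days 0 and 2 and to between 543 and 617 CPM on day 4 and went both ways. Itga2b, which made up most of the sum, was called higher on day 4 than on day 0 (log2 fold change 1.38), as was Gp9 (0.66), whereas Pf4 was lower (-2.39, from 57.4 and 42.7 CPM to 10.2 and 8.93 CPM), as was Ppbp, which went from 13 and 18 counts to 0. The part of these lists in the results below was not tested.

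All 9 enzymes were lower on day 4 than on day 0 by the edgeR quasi-likelihood test at an adjusted p below 0.05, where 36.4% of the genes tested were lower. The median log2 fold change of the 9 was -2.99, against -0.02 over all tested genes, and each of the 9 lay within the 5.05% of genes with the largest falls. Between days 0 and 2, 8 of the 9 were called lower against 31.5% of all genes, with a median of -1.75, and Aldh1l2 was the exception. Between days 2 and 4, all 9 were called lower against 16.2% of all genes, with a median of -1.28. Calls at both steps were made for 8 of the 9, against 9.05% of all genes. In all 9, both libraries of each later day were under both libraries of the day before, which held for 21.4% of all genes. The libraries measure RNA in bulk, so that fewer cells expressing a gene and less of its RNA per cell cannot be told apart.

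Scaling by total counts in place of TMM factors moved the median log2 fold change of all genes from 0.01 to 0.21 for day 2 against day 0, from -0.00 to -0.09 for day 4 against day 2 and from -0.02 to 0.10 for day 4 against day 0, and changed the split of calls over all genes. For day 2 against day 0 the shares called lower and higher were 31.5% and 31.0% with TMM factors and 23.3% and 40.4% with total counts. For day 4 against day 2 they were 16.2% and 14.0% with TMM factors and 20.5% and 9.92% with total counts. For day 4 against day 0 they were 36.4% and 35.5% with TMM factors and 32.4% and 39.7% with total counts. The members kept 8, 9 and 9 calls, all lower, under total counts.

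**Figure D1:**
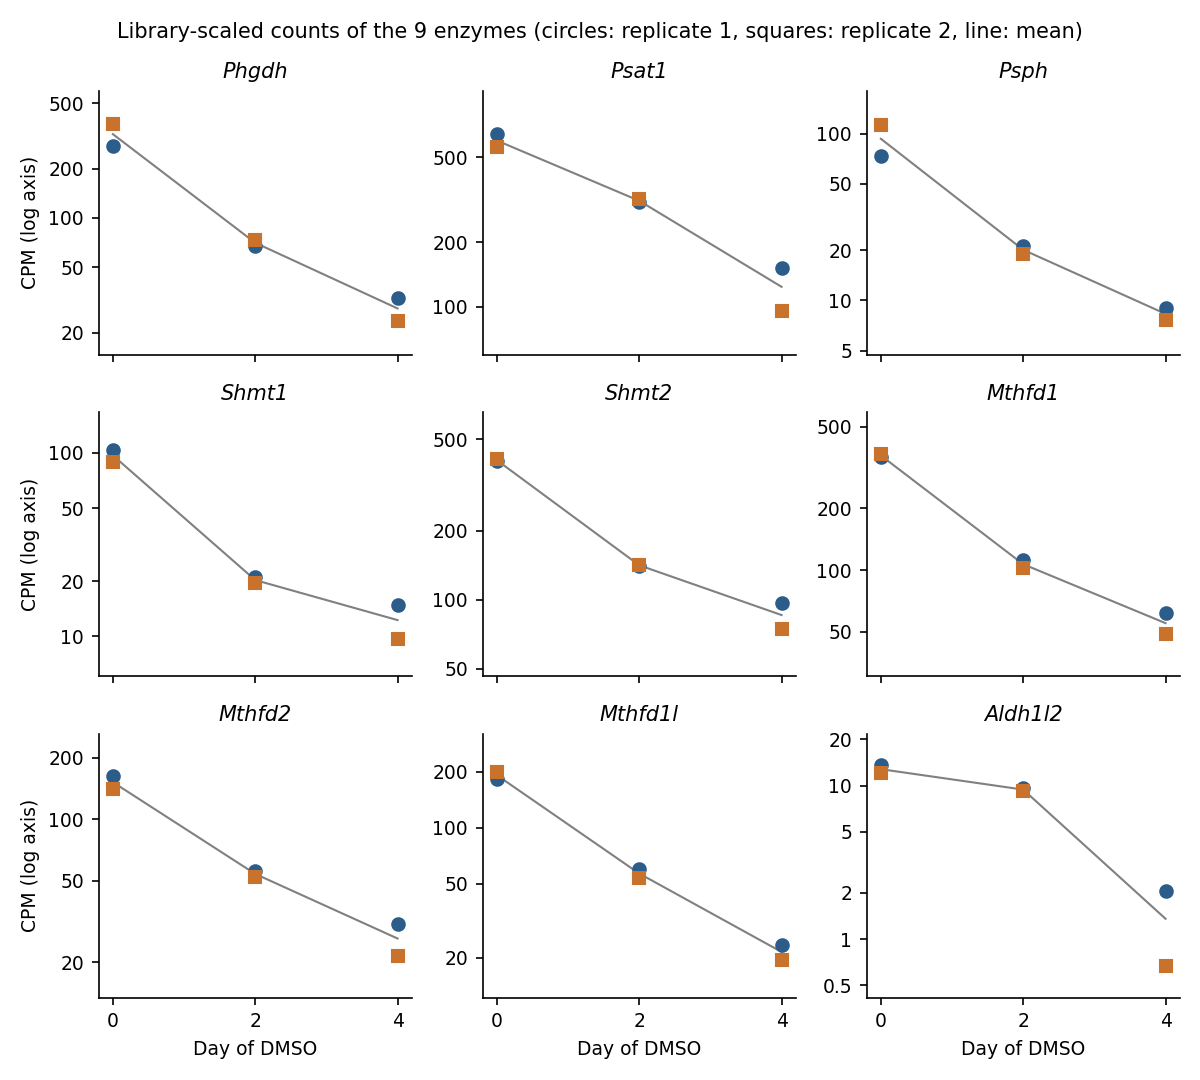
Library-scaled counts (CPM, log axis) of the 9 enzymes in each of the 6 libraries against the day of DMSO, with circles for replicate 1, squares for replicate 2 and a line through the mean of each day. In every panel the libraries of days 0, 2 and 4 form 3 descending pairs that do not overlap.

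The genes lie apart in the genome, and the 3 that share a chromosome are far from each other on it. The coordinates below are RefSeq spans of whole genes. The transcript in brackets is the one counted, and it need not fill the span of its gene. In GRCm38 coordinates, Phgdh (NM_016966) spans chr3:98313171-98339969, Psat1 (NM_177420) chr19:15905123-15925059, Psph (NM_133900) chr5:129765558-129787443 and Shmt1 (NM_009171) chr11:60788897-60811265, all on the minus strand. Shmt2 (NM_028230) spans chr10:127517123-127522444 and Aldh1l2 (NM_153543) chr10:83487447-83534146 on the minus strand, and Mthfd1l (NM_172308) chr10:3972892-4167081 on the plus strand of the same chromosome. Mthfd1 (NM_138745) spans chr12:76254406-76319820 on the plus strand and Mthfd2 (NM_008638) chr6:83305704-83326011 on the minus strand.

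Promoter sequences are shown because the 9 transcripts fell together while ATF4 and MYC, both known as regulators of serine and folate genes, have short binding motifs. RefSeq promoter windows of 250 bases before to 50 bases after the start site were at hand for 8 of the 9 genes, Psat1 with 2 windows, and were searched on both strands. The core of the element bound by ATF4 with C/EBP partners, TGATGNAA, was present in 3.97% of all 32851 windows and in no window of the 8 members, and the MYC E-box core CACGTG was present in 7.15% of all windows and likewise in none of the members' windows. The absence of a motif says only that its letters are not in these windows. The other motifs were searched after these results were seen. Of these, the GC box GGGCGG was found for 5 of the 8 genes (35.7% of all windows), the CCAAT box for 6 (37.4%) and the E-box variant CACGCG for 3 (9.27%). Counted by window, as the shares are, the members held them in 5, 6 and 4 of 9 windows. Of the 11 genes of the ATF4 list described below that have windows, 6 held TGATGNAA, among them Slc7a11. Sequence upstream of the start sites of the hydroxymethyltransferase pair, of Phgdh as the entry enzyme and of Slc7a11 for contrast is given from RefSeq in GRCm38.p6, 5′ to 3′ on the minus strand, the strand each gene is read from. Annotated exon bases were left out, and capitals mark any of the 5 motifs on either strand.
Phgdh, chr3:98339991-98340219: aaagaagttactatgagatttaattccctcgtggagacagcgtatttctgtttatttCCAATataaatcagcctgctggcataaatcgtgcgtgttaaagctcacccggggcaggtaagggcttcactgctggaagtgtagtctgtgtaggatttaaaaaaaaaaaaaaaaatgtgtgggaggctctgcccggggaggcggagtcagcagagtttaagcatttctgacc
Shmt1, chr11:60811266-60811466: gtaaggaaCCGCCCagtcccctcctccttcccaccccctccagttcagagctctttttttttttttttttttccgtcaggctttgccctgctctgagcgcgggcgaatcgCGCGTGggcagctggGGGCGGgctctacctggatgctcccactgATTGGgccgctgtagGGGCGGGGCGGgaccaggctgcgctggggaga
Shmt2, chr10:127522445-127522694: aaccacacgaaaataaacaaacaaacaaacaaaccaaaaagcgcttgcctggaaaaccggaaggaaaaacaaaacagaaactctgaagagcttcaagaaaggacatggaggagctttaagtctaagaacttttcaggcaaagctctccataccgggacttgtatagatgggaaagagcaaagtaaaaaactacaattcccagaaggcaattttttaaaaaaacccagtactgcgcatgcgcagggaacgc
Slc7a11, chr3:50443615-50443863: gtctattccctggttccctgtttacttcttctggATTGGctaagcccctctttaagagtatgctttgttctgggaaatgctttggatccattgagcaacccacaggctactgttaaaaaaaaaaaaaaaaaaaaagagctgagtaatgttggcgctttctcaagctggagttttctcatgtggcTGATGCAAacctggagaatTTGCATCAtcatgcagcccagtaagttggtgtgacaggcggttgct
The Shmt1 stretch holds 6 matches, 4 of them GC boxes of which the last pair overlap by 1 base, whereas the Shmt2 stretch of 250 bases holds none. The Phgdh stretch holds 1 CCAAT box, and the Slc7a11 stretch holds 1 CCAAT box and 2 matches to TGATGNAA. The stretches are of unlike length, at 229 bases for Phgdh and 201 for Shmt1. The Phgdh window also holds a CCAAT box at offset -23 from the start site, which the end of the stretch cuts. The Shmt2 window holds a CACGCG at offset 38, outside the stretch. These matches are descriptions of the sequence and no binding was measured.

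Serine synthesis was followed first at its entry enzyme, Phgdh, which oxidizes phosphoglycerate. Phgdh stood at 274 and 374 CPM in the day 0 replicates, at 67.3 and 73.7 CPM on day 2 and at 32.6 and 23.5 CPM on day 4. The replicates of day 0 differed by 1.36 times, less than the distance to either later day. The fall was 2.20 on the log2 scale to day 2 (SE 0.18, adjusted p = 2.66e-06) and a further 1.33 to day 4 (SE 0.18, adjusted p = 0.00056), which left 8.65% of the day 0 mean.

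Psph, the phosphatase that releases serine in the last reaction, followed almost the same course at a lower level. Its values were 73.0 and 113 CPM on day 0, 21.1 and 19.1 CPM on day 2 and 9.03 and 7.58 CPM on day 4. Its day 0 replicates were the furthest apart of the 9 enzymes, at 1.55 times, and replicate 2 was the higher as for Phgdh. The log2 fold changes were -2.21 (SE 0.19, adjusted p = 3.6e-06) for the first step and -1.28 (SE 0.20, adjusted p = 0.00112) for the second, and 8.91% of the day 0 mean was left on day 4.

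Psat1, the aminotransferase between them, took a different course. It was measured at 640 and 556 CPM on day 0, 308 and 317 CPM on day 2 and 152 and 95.8 CPM on day 4. It thus kept 52.3% of its day 0 mean on day 2, where Phgdh kept 21.7% and Psph 21.6%. The fall to day 2 was 0.93 on the log2 scale (SE 0.18, adjusted p = 0.00115) and the fall from day 2 to day 4 was 1.34 (SE 0.19, adjusted p = 0.000716), so that 20.7% of the day 0 mean was left. The day 4 replicates were spread more widely than those of day 2, with replicate 2 the lower.

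In the cytosol, Shmt1 had a first step close in size to those of Phgdh and Psph. Its level was 104 and 89.5 CPM on day 0, 21.0 and 19.5 CPM on day 2 and 14.8 and 9.68 CPM on day 4. The first step was a fall of 2.26 on the log2 scale (SE 0.18, adjusted p = 1.84e-06), to 20.9% of the day 0 mean. The second step was smaller, at -0.73 (SE 0.18, adjusted p = 0.0104), and its call was lost when day 2 replicate 1, day 2 replicate 2 or day 4 replicate 2 was left out (adjusted p = 0.105, 0.0553 and 0.106), although the libraries of the 2 days do not overlap.

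Mthfd1, the cytosolic enzyme that interconverts methylene-, methenyl- and formyl-tetrahydrofolate, had closely matched replicates. It stood at 356 and 369 CPM on day 0, 111 and 102 CPM on day 2 and 61.5 and 48.5 CPM on day 4. The steps were -1.76 (SE 0.13, adjusted p = 1.5e-06) and -0.96 (SE 0.13, adjusted p = 0.000625) on the log2 scale. By day 4, 15.2% of the day 0 mean was left, a 6.59-fold fall.

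Among the mitochondrial enzymes, Shmt2 was the most abundant and had nearly identical replicates on days 0 and 2. Its values were 401 and 411 CPM on day 0, 141 and 142 CPM on day 2 and 97.2 and 74.2 CPM on day 4. The log2 fold changes were -1.52 (SE 0.14, adjusted p = 4.51e-06) and -0.72 (SE 0.13, adjusted p = 0.00295). At 21.1%, it kept the largest share of its day 0 mean of the 9 enzymes, with Psat1 next at 20.7%.

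Mthfd2, the mitochondrial dehydrogenase and cyclohydrolase known for its high expression in proliferating cells, lay at 164 and 140 CPM on day 0, 56.1 and 52.0 CPM on day 2 and 30.8 and 21.4 CPM on day 4. Its steps were -1.49 (SE 0.16, adjusted p = 1.45e-05) and -1.05 (SE 0.16, adjusted p = 0.00105), and 17.2% of its day 0 mean was left. The replicates of each day lay well clear of those of the other days.

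Mthfd1l, which releases formate for export to the cytosol, lay at 183 and 200 CPM on day 0, 59.8 and 53.8 CPM on day 2 and 23.6 and 19.5 CPM on day 4. Both of its steps were large, at -1.75 (SE 0.12, adjusted p = 9.28e-07) and -1.40 (SE 0.12, adjusted p = 0.000103) on the log2 scale. It ended at 11.2% of the day 0 mean, an 8.91-fold fall, and it had the lowest adjusted p of the 9 enzymes over both steps together (1.53e-08).

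Aldh1l2, which oxidizes formyl-tetrahydrofolate to carbon dioxide in mitochondria and yields NADPH, was the least abundant member and the only one that was not called at the first step. It stood at 13.6 and 12.0 CPM on day 0, 9.60 and 9.22 CPM on day 2 and 2.05 and 0.663 CPM on day 4, which are 554, 595, 401, 453, 74 and 30 raw counts. Day 2 kept 73.6% of the day 0 mean, a log2 fold change of -0.44 (SE 0.27, adjusted p = 0.174) although both day 2 libraries were under both day 0 libraries. This change was called when the low counts were not filtered (adjusted p = 0.0145), when only days 0 and 2 were fitted (adjusted p = 0.0183) and when day 4 replicate 1 or 2 was left out (adjusted p = 0.0223 and 0.0215).

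The second step of Aldh1l2 was a fall of 2.84 on the log2 scale (SE 0.33, adjusted p = 0.000282), within the 0.323% of genes with the largest falls from day 2 to day 4. Its size depended on which day 4 library was used, since it fell by 3.82 without replicate 1 and fell by 2.20 without replicate 2. Over both steps the fall was 3.28 (SE 0.33, adjusted p = 5.09e-06), and it fell by 4.26 or fell by 2.64 under the same omissions. The direction and the call held in each case.

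**Figure D2:**
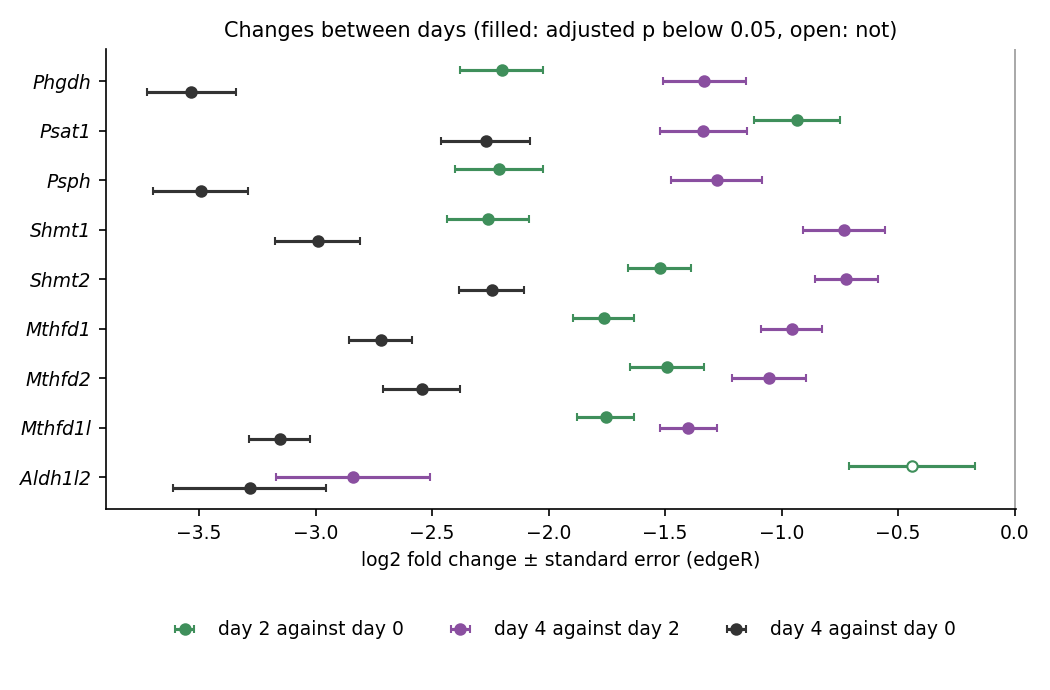
Log2 fold changes of the 9 enzymes for day 2 against day 0 (green), day 4 against day 2 (purple) and day 4 against day 0 (black), with standard errors from edgeR as bars and open symbols for an adjusted p of 0.05 or more. All symbols lie below 0, the single open one is Aldh1l2 at the first step, and its second step of -2.84 is the largest second step of the 9.

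The unequal sizes of the steps were tested as the second log2 fold change minus the first, a difference that counts the day 2 libraries in both terms. It was called for 4 of the 9 enzymes, against 30.0% of all genes called in either direction. Shmt1 fell less at the second step than at the first by 1.53 (SE 0.31, adjusted p = 0.00467), Mthfd1 by 0.81 (SE 0.23, adjusted p = 0.0218) and Shmt2 by 0.80 (SE 0.23, adjusted p = 0.0255). Aldh1l2 went the other way, with a difference of -2.40 (SE 0.50, adjusted p = 0.00549).

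For the other 5 enzymes the difference missed the threshold, at 0.87 for Phgdh (adjusted p = 0.0519), 0.93 for Psph (adjusted p = 0.0536), 0.44 for Mthfd2 (adjusted p = 0.245), 0.35 for Mthfd1l (adjusted p = 0.222) and -0.40 for Psat1 (adjusted p = 0.362). As a share of the whole log2 fall, the part reached by day 2 ran from 13.4% for Aldh1l2 and 41.2% for Psat1 to 67.8% for Shmt2 and 75.6% for Shmt1. None of the 4 calls was made when either day 2 library was left out, those of Shmt2 and Mthfd1 were also lost with total counts or without day 4 replicate 1, and that of Aldh1l2 was lost with DESeq2 (adjusted p = 0.0701).

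To order the enzymes by level, counts were divided by transcript length and expressed as TPM, a level that can be compared between genes. On day 0 the order was Psat1 at 748 ± 92.5 TPM, Shmt2 at 579 ± 3.53, Phgdh at 559 ± 108, Mthfd1 at 366 ± 0.113, Mthfd2 at 239, Psph at 175 ± 49.8, Mthfd1l at 171 ± 6.19, Shmt1 at 111 ± 14.6 and Aldh1l2 at 6.94 ± 0.777 TPM (mean ± SD, n = 2), where the replicates of Mthfd2 were 261 and 216 TPM. Shmt2 and Phgdh, and Psph and Mthfd1l, were neighbours whose libraries overlapped. On day 4 the means ran from Psat1 at 162 ± 55.4 and Shmt2 at 128 ± 26.9 TPM down to Shmt1 at 14.7 ± 4.62 and Aldh1l2 at 0.774 ± 0.572 TPM (mean ± SD, n = 2). Phgdh, at 50.7 ± 12.6 TPM, now stood behind Mthfd1 at 58.1 ± 10.9 TPM, and Psph, at 16.4 ± 2.36 TPM, behind Mthfd1l at 20.1 ± 3.05 TPM. On day 4 the libraries overlapped between Psat1 and Shmt2, between Mthfd1 and Phgdh, between Phgdh and Mthfd2, between Mthfd1l and Psph and between Psph and Shmt1, so that these neighbours in the order were not separated.

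Summed by arm, the serine synthesis transcripts went from 1435 and 1528 TPM on day 0 to 645 and 660 TPM on day 2 and 279 and 180 TPM on day 4. The 2 cytosolic folate enzymes went from 487 and 466 TPM to 162 and 148 TPM and then to 83.7 and 61.7 TPM, and the 4 mitochondrial enzymes from 1017 and 974 TPM to 414 and 397 TPM and then to 222 and 162 TPM. The arms thus kept 15.5%, 15.3% and 19.3% of their day 0 means on day 4, and the 9 enzymes together 16.7%. In each arm both libraries of a later day were below both of the day before, and day 4 replicate 2 was the lower of its pair in all 3.

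The enzymes that have a counterpart in the other compartment were compared within each library, as the ratio of mitochondrial to cytosolic counts per base of transcript. Shmt2 exceeded Shmt1 by 4.79 and 5.73 times on day 0, by 8.39 and 9.06 times on day 2 and by 8.20 and 9.57 times on day 4. All 4 later libraries lay above both of day 0. Mthfd1l was 0.455 and 0.479 of Mthfd1 on day 0, 0.474 and 0.465 on day 2 and 0.338 and 0.356 on day 4, where both libraries lay below the other 4. Mthfd2 was 0.714 and 0.590 of Mthfd1 on day 0, 0.782 and 0.791 on day 2 and 0.778 and 0.686 on day 4, so that its days 0 and 4 overlapped. With 15 ways to split 6 libraries into 3 pairs, the exact permutation test of a difference among days can reach no less than p = 0.0667, and it gave p = 0.2 for Shmt2 to Shmt1, p = 0.2 for Mthfd1l to Mthfd1 and p = 0.267 for Mthfd2 to Mthfd1 before any adjustment over these 3 ratios.

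**Figure D3:**
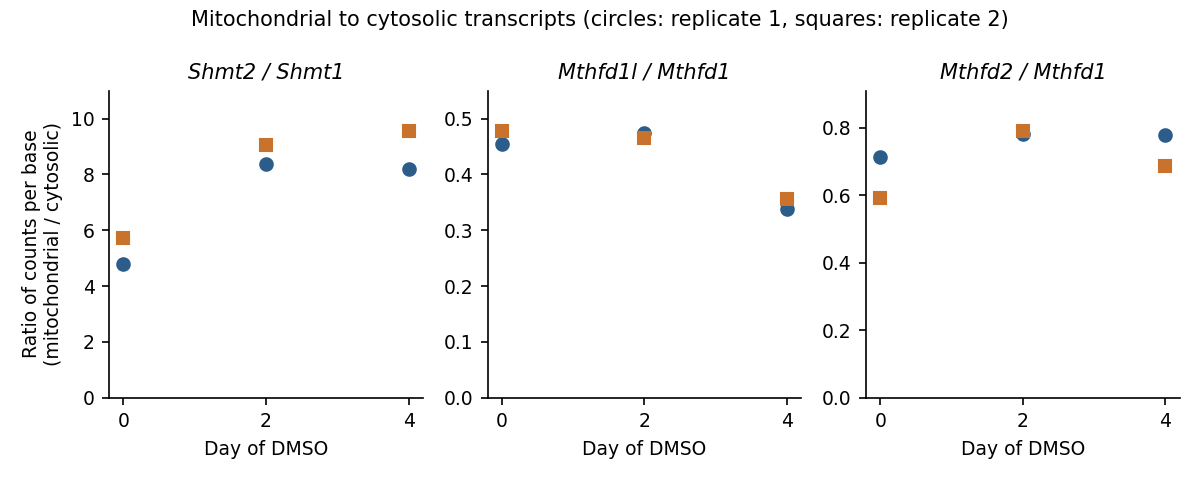
Ratio of mitochondrial to cytosolic counts per base of transcript in each library against the day of DMSO, for Shmt2 to Shmt1 (left), Mthfd1l to Mthfd1 (middle) and Mthfd2 to Mthfd1 (right), with circles for replicate 1 and squares for replicate 2. The Shmt2 to Shmt1 ratio rises from 4.79 and 5.73 on day 0 to at least 8.20 later, and the Mthfd1l to Mthfd1 ratio is lowest on day 4, at 0.338 and 0.356.

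Likeness between genes was measured as the root mean square difference of log2 CPM over the 6 libraries after centring each gene on its mean, among the 10454 genes whose log2 CPM averaged 1 or more. It is a description over few libraries, in which most points share the overall course with day. Phgdh and Psph were each other's closest gene at 0.121, ahead of Dennd1c and Gp5 for Phgdh and of Tagln2 and Ccdc88b for Psph. Psat1 was not among the near neighbours of either, and ranked 287 from Phgdh and 324 from Psph. Its own closest genes were Ly9 at 0.0723, Slc7a7 and Pld4.

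Mthfd1 and Mthfd2, which act in different compartments, were near each other at 0.149, at rank 11 seen from Mthfd1 and rank 12 seen from Mthfd2. The closest genes were Hmga2-ps1 at 0.0632, Gsto1 and Gucy2g for Mthfd1, Wdr12 at 0.0711, 2010204K13Rik and Sgk1 for Mthfd2, and Nme1 at 0.0743, Dcps and Trpv2 for Shmt2. For Shmt1 they were Dusp6 at 0.0990, Cmtm7 and Kcne3, and for Mthfd1l they were Il6ra at 0.101, Zfp831 and H2ac23. Aldh1l2 had no close match, with Slc7a11 nearest at 0.316, followed by Tcam1 at 0.465 and Nxpe4 at 0.471.

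**Figure D4:**
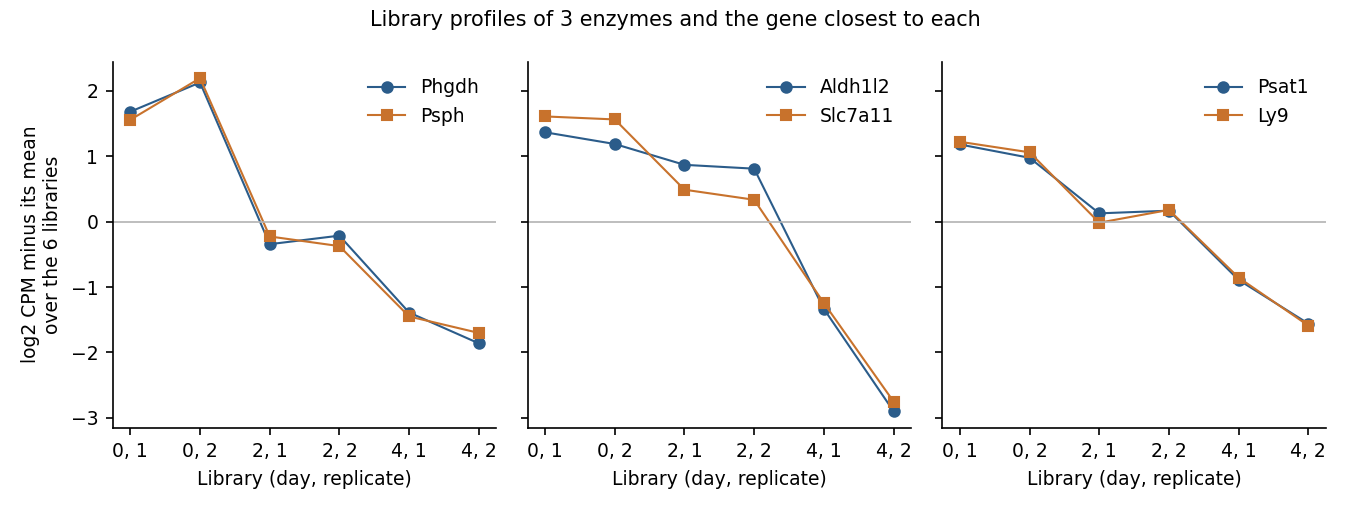
Log2 CPM minus the gene's mean over the 6 libraries, by library (day, replicate), for Phgdh with Psph, Aldh1l2 with Slc7a11 and Psat1 with Ly9. The 2 lines of each panel run close together, least so for Aldh1l2 with Slc7a11, and the root mean square distances of the pairs are 0.121, 0.316 and 0.0723.

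The other genes of the pathway were read from 7 lists of 65 genes in all, of which 54 could be tested. On day 4 against day 0, 34 of the 54 were lower, 11 were higher and 9 were not called, with a median log2 fold change of -0.74, where 36.4% of all tested genes were lower and 35.5% higher. The counts were 30 lower and 10 higher for the first step, against 31.5% and 31.0% of all genes, and 27 lower and 5 higher for the second, against 16.2% and 14.0%. The counts of each list on day 4 against day 0 are to be read beside these shares of 36.4% and 35.5% of all genes. Under the omission of day 2 replicate 1, day 2 replicate 2 or day 4 replicate 2, the 32 calls of the second step fell to 16, 18 and 18.

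Purine synthesis, which takes formyl groups from folate, fell throughout. All 6 of its genes were lower at both steps, with a median of -1.59 for day 4 against day 0. Atic, which carries out the last formyl transfer and the ring closure, fell most, from 342 and 333 CPM on day 0 to 153 and 146 CPM on day 2 and 103 and 83.0 CPM on day 4 (log2 fold change -1.86, SE 0.13, adjusted p = 3.47e-07 over both steps). The smallest fall in the list was -1.04, less than that of any of the 9 enzymes.

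Of the 6 tested genes of thymidylate synthesis and folate reduction, 4 were lower, 1 was higher and 1 was not called on day 4 against day 0. Tyms, the thymidylate synthase that consumes methylene-tetrahydrofolate, went from 110 and 140 CPM on day 0 to 53.2 and 50.4 CPM on day 2 and 20.7 and 26.6 CPM on day 4 (log2 fold change -2.40, SE 0.15, adjusted p = 2.14e-07 over both steps). Mtfmt, which formylates the mitochondrial initiator transfer RNA, was called higher by 0.34 (SE 0.14, adjusted p = 0.0473). Mthfd2l, the paralog of Mthfd2, had 0 counts in every library and could not be tested. Whether this reflects its expression or the counting was not tested. Aldh1l1, the cytosolic counterpart of Aldh1l2, and Ftcd had too few counts to be tested.

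Of the 5 tested genes of folate uptake and storage, 3 were lower and 2 were higher on day 4. Fpgs, which adds glutamates to folates and so retains them in the cell, fell by 1.25 on the log2 scale (SE 0.14, adjusted p = 1.05e-05), and Ggh, which removes them, was 2.82-fold higher (adjusted p = 0.000112). Ggh remained a low transcript, at 1.25 and 0.987 CPM on day 0, 4.31 and 3.62 CPM on day 2 and 2.88 and 3.38 CPM on day 4. Folr1 and Folr2 were not tested.

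The list of glycine cleavage and glycine use went both ways, with 5 genes higher and 4 lower on day 4. Alas2 stood at 88.0 and 64.9 CPM on day 0, 280 and 325 CPM on day 2 and 1323 and 1510 CPM on day 4, a rise of 4.21 on the log2 scale (SE 0.18, adjusted p = 1.89e-08). Gcat, a mitochondrial enzyme that yields glycine and acetyl-CoA in threonine breakdown, went from 68.1 and 82.2 CPM on day 0 to 7.93 and 9.75 CPM on day 2 and 6.32 and 5.13 CPM on day 4, a fall of 3.72 (SE 0.17, adjusted p = 2.62e-08). Alas2 was highest and both hydroxymethyltransferase transcripts were lowest on day 4, when 35.5% of all genes were higher than on day 0. A link between them was not tested. In the same list Slc6a9 was higher by 1.70 (SE 0.15, adjusted p = 2.52e-06). Slc25a38 was lower by 0.79 (SE 0.12, adjusted p = 0.000144). Gldc, the decarboxylase of the glycine cleavage system, was not tested.

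The methionine cycle and transsulfuration list had 5 genes lower, 1 higher and 3 not called on day 4. Cth, the cystathionine lyase that yields cysteine from carbon of serine origin, showed the largest fall of the 54 tested genes, from 51.5 and 57.0 CPM on day 0 to 9.77 and 7.75 CPM on day 2 and 3.08 and 3.18 CPM on day 4 (log2 fold change -4.11, SE 0.16, adjusted p = 1.09e-08 over both steps). Ahcyl2, a relative of the homocysteine-forming hydrolase, was higher by 1.13 (SE 0.12, adjusted p = 7.48e-06). Mat1a and Bhmt were not tested.

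Serine transport and breakdown had 3 of 8 tested genes lower, 2 higher and 3 not called on day 4, with a median of -0.09, and its share of lower genes was thus near the 36.4% of all genes. Slc1a4, a carrier of neutral amino acids including serine, fell by 1.06 on the log2 scale (SE 0.14, adjusted p = 4.49e-05). Srr, the serine racemase, was measured at 4.22 and 3.81 CPM on day 0, 16.0 and 14.5 CPM on day 2 and 26.5 and 29.0 CPM on day 4, a rise of 2.79 (SE 0.14, adjusted p = 4.77e-08). Sds, at 0 counts in every library, and Sptlc1, at no more than 1 count in any library, were not tested.

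Of Atf4 and 10 genes known as its targets, 9 were lower and 2 were not called on day 4, with a median of -1.06. Vldlr, at 0 counts in every library, was not tested. The 2 without a call were Atf5 (log2 fold change 0.33) and Nupr1 (0.31). At the first step 8 of the 11 were lower, against 31.5% of all genes. Atf5 was higher at that step by 0.78 (SE 0.30, adjusted p = 0.0421), and Asns (-0.07) and Nupr1 (0.47) were not called. At the second step 7 were lower, against 16.2% of all genes, and 4 were not called. Atf4 itself stood at 442 and 630 CPM on day 0, 247 and 234 CPM on day 2 and 179 and 128 CPM on day 4. The steps of Atf4 were -1.15 (SE 0.19, adjusted p = 0.000309) and -0.65 (SE 0.19, adjusted p = 0.023). Its day 0 replicates differed by 1.43 times, with replicate 2 the higher. Replicate 2 was also the higher on day 0 for Phgdh, Psph, Shmt2, Mthfd1, Mthfd1l and Myc. The day 0 pairs of Psat1, Shmt1, Mthfd2 and Aldh1l2 had replicate 1 as the higher.

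Slc7a11, the cystine carrier whose upstream sequence is printed above, had the largest fall of the Atf4 list. It stood at 43.5 and 42.2 CPM on day 0, averaged 19.0 CPM on day 2 (835 and 883 raw counts) and was at 5.99 and 2.08 CPM on day 4. Its log2 fold changes were -1.17 (SE 0.29, adjusted p = 0.00432) and -2.26 (SE 0.32, adjusted p = 0.000793), and as for Aldh1l2 day 4 replicate 2 was far below replicate 1. Myc was at 147 and 199 CPM on day 0, 144 and 140 CPM on day 2 and 91.8 and 67.7 CPM on day 4, with no call at the first step (-0.29, SE 0.16, adjusted p = 0.148) and a fall of 0.83 at the second (SE 0.17, adjusted p = 0.00422). Over both steps the log2 fold change was -1.80 for Atf4 and -1.12 for Myc. These are RNA levels, and the part of either regulator in the falls of the 9 enzymes was not tested.

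**Figure D5:**
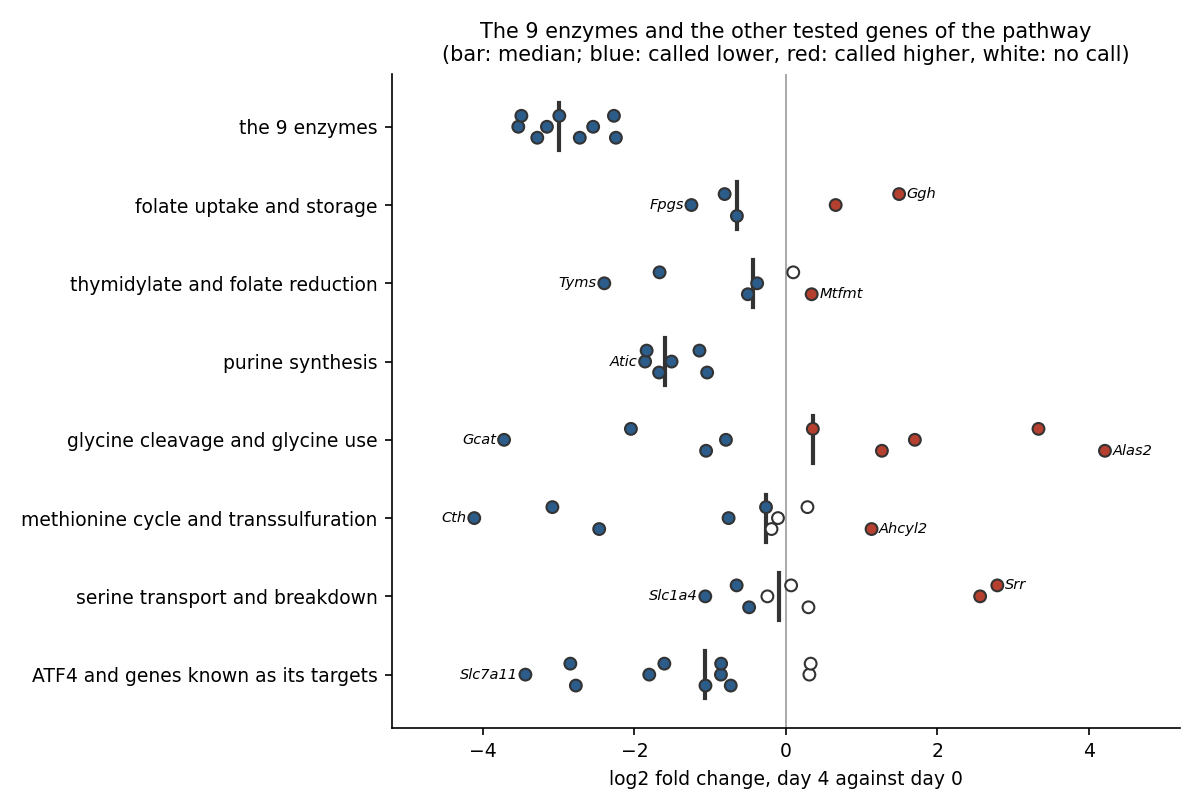
Log2 fold change of day 4 against day 0 for the 9 enzymes and for the tested genes of 7 lists, where each point is a gene (blue for lower, red for higher, white for no call) and each bar the median of its row. The 9 enzymes lie between -3.53 and -2.24, the purine genes all lie below 0, and the glycine row runs from Gcat at -3.72 to Alas2 at 4.21.

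Several members overlap a gene on the opposite strand, and because the use of strand in counting is not given in the sources used here, reads in shared bases cannot be told apart. In GENCODE the shared exon bases are 452 for Psph with Cct6a, 184 for Shmt1 with Smcr8, 37 for Mthfd1 with Gm47525, 32 for Shmt2 with Ndufa4l2 and 1056 for Aldh1l2 with D10Wsu102e. The counts are per RefSeq transcript, and in RefSeq gene spans the overlap is 88 bases for Psph with Cct6a and 32 for Shmt2 with Ndufa4l2, whereas Smcr8 and D10Wsu102e share 0 bases with Shmt1 and Aldh1l2. Cct6a averaged 815, 349 and 205 CPM on days 0, 2 and 4 and fell by 1.22 and 0.77 on the log2 scale at the 2 steps, and its part in the Psph values was not tested. Phgdh has a processed pseudogene, Phgdh-ps1, on chromosome 7, so that reads common to both are uncertain. The other counted transcripts of Psat1, Shmt2 and Mthfd1l carry nearly the same reads, with totals 0.762%, 0.0195% and at most 4.78% below the ones used.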

How the data were processed

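Libraries were made from Trizol-extracted RNA with a TruSeq stranded mRNA kit. Per the study's methods and the submitters' processing notes, the authors trimmed adapters with cutadapt, aligned reads to mm10 (GRCm38) with TopHat 2.1.0 (up to 10 multiple hits) and deposited raw counts of reads on each RefSeq transcript. HTSeq is also named there, but its version, strand and overlap settings and the annotation release are not given in the sources used here. Deposited lines for reads on no feature (50.5% to 58.4% of these reads and the transcript counts together) were left out.

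Groups came from the labels. Symbols came from RefSeq (32199 of 32654 transcripts) and GENCODE (187), and 268 stayed unnamed. edgeR 4.0.16 (R 4.3.3) was fitted to all 6 libraries (TMM, filterByExpr by day, glmQLFit, glmQLFTest, Benjamini-Hochberg over 18351 transcripts), with calls at adjusted p values under 0.05. Each standard error is the log2 fold change divided by the root of its F statistic. A transcript at no more than 3 counts was at the floor. The fit was tested on simulated data. Replicates of a day differed beyond sampling noise (chi-square per degree of freedom 9.09 to 49.9), and were counted as separate.

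The named genes are the 9 members, Atf4, Myc, Hba-a1, the called gene of each pathway list with the largest rise and with the largest fall on day 4 against day 0, and the 3 genes nearest to each member. Genes that were too low to test or that overlap a member, and single markers of other cell types, are named only for that reason. The markers above the floor (Itga2b, Gp9, Pf4, Ppbp, Cpa3, Fcer1a, Cma1, Prtn3, Lyz2 and Csf1r) were named after their values were seen. The erythroid markers Hbb-bs and Klf1 were also named after their values were seen. So were Asns, Atf5 and Nupr1 of the Atf4 list and Slc6a9 and Slc25a38 of the glycine list. One of the marker lists is not reported here. Members and lists were chosen with earlier results of these data known, and the lists come from background knowledge. The sequences printed were chosen after values were seen. TPM used annotated exon lengths. Alternatives were relative log expression factors, total counts, TMM without globins, no filter, DESeq2 1.42.0, only the 2 days compared, a replicate block, counts summed per gene, other transcripts of Psat1, Shmt2 and Mthfd1l (added after seeing the data), 1 count added to the ratios, and leaving out each library, where a lone library is assumed to vary like the other days.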

Additional observations from a re-analysis of the deposited data

How the results depend on the processing

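No alternative reversed the direction of a member's change. The members called stayed between 8 and 9 at each step and at 9 for day 4 against day 0 under all 14 alternatives of each. The count of step differences called among members, 4, became 2 with total counts and ranged from 0 to 6 when a library was left out, with 0 without day 2 replicate 1 or 2. Pathway genes called for day 4 against day 2, 32, ranged from 16 to 38 when a library was left out. The log2 ratio of Mthfd2 to Mthfd1 rose by 0.28 from day 0 to day 2 (0.14 to 0.41 with a library left out) and by 0.17 from day 0 to day 4 (0.032 to 0.31). Of the values for single members, 475 kept their direction and side of the threshold, 16 gained a call (the first step of Aldh1l2 and the step differences of Phgdh, Psph and Psat1) and 16 lost one (the second step of Shmt1 and the step differences of Shmt1, Shmt2, Mthfd1 and Aldh1l2). Having 2 libraries per day limits every estimate of the spread.

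Same-numbered replicates deviated together only weakly (r between 0.03 and 0.08 over 18351 transcripts), and the main fit did not pair them. A low correlation cannot exclude a shared origin of same-numbered libraries, which the labels do not give. With the replicate block, the members called were 8, 9 and 9, the step differences called 4 and the pathway genes called 40, 32 and 44.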
